A study of Cavia porcellus with 13 samples.

Results

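Genes of the metalloproteinase families and of their tissue inhibitors (TIMPs) were described across tick-bitten and unbitten guinea pig skin. They were the rows of the deposited table whose symbol is MMP, TIMP, ADAM or ADAMTS followed by a number, with at least 1 TPM (transcripts of a gene, scaled by its length, out of 1000000 in the library) in at least 2 of 13 libraries. Of 56 rows with such a symbol, 48 met that level: 15 of 20 MMP genes, 4 of 4 TIMP genes, 12 of 14 ADAM genes and 17 of 18 ADAMTS genes. They stand among 14979 genes that reached the same level, of 26855 in the table. The 8 genes below it were the collagenases MMP1 and MMP8, MMP20, MMP21, MMP24, ADAM23, ADAMTS13 and Adam2. MMP21 and Adam2 were listed at 0 in every library, and MMP8, the collagenase of neutrophil granules, reached at most 0.941 TPM. Just inside and outside that level stood MMP25, at 1 TPM or more in 3 libraries, and MMP24, which reached 1.13 TPM in 1 library. MMP7 had no row by that symbol and was not analysed here.

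RNA of bitten skin came from biopsies taken 4 days after tick attachment, and naive skin, which had no tick, carried the same day of 4. Libraries whose titles begin with CK1 held skin of bitten animals labelled saliva immune (3 libraries, the way of immunization not being given), bitten skin of a first exposure (3) and naive skin without a bite (2). Libraries whose titles begin with EF19-5 held bitten skin labelled as 3 bites (2 libraries), bitten skin labelled as 2 bites (2) and naive skin without a bite (1). The prefixes are not explained in the labels and are treated as 2 experiments. Strain, age, sex, biopsy site and tick species were not given in the labels used here, and whether each library came from its own animal was not stated, so p-values measure the spread between these libraries only.

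MMPs are zinc proteases that cut collagens, elastin and other matrix proteins, and many of them also process cytokines. Most are made as inactive proenzymes that lose a propeptide, and TIMPs block the active enzyme by binding its zinc site. ADAMs are membrane proteins, several of which shed growth factors, cytokines and receptors from the cell surface, and ADAMTS enzymes are secreted relatives that trim procollagens and proteoglycans. In skin these enzymes are known from hair cycling, wound closure, leukocyte entry and scar formation.

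The biopsies differed in tissue content, which bears on all values below, because TPM is a share of a library and fewer cells of a type cannot be told apart from less RNA per cell. The 27 measured skeletal muscle markers of 31 listed together took 2.43% to 10.3% of TPM in bitten and 9.82% and 17.1% in naive CK1 skin, and 0.628% to 1.53% in bitten and 2.44% in naive EF19-5 skin. Summed TPM of the 10 fibroblast markers lay between 1902 and 3951 in bitten against 2492 and 3878 in naive CK1 skin, and between 3369 and 8960 in bitten against 12820 in naive EF19-5 skin. The 6 keratinocyte markers in the table, which check the label of the tissue, summed to 14430 to 27800 TPM in bitten against 9820 and 20530 TPM in naive CK1 skin, and to 34580 to 50780 TPM in bitten against 25040 TPM in naive EF19-5 skin, there without overlap. All 6 stood higher in bitten skin, against 64.6% of all genes (median log2 difference 0.48). At an unadjusted p under 0.05, 3 of them were higher, against 11.2% of all genes, and limma called none. The part of these 6 markers in the levels of genes that keratinocytes make was not tested. Of the 27 muscle markers, 7 were higher in bitten skin, against 64.6% of all genes, and 20 were lower (median log2 difference -1.17). In first exposure against naive skin, 6 were higher without overlap, against 21.9% of all genes, and 17 lower, against 14.1%. Between bitten and naive skin limma called 1 of the 27, PVALB (adjusted p = 0.0413). PVALB averaged 372 ± 124 TPM in bitten (SD, n = 10) and 1604 ± 905 TPM in naive skin (n = 3), a log2 difference of -1.97. Between 13270 and 14390 genes per library reached 1 TPM. The depth of the libraries is unknown.

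A few abundant genes made up most of these families' transcripts. Timp2 averaged 370 TPM over 13 libraries, MMP2 210 TPM, TIMP1 160 TPM, TIMP3 109.5 TPM and MMP14 89.0 TPM. The TIMP1 mean is raised by 884 TPM in 2 bites replicate 1. In the 3 naive libraries TIMP1 stood at 68.4, 45.45 and 104 TPM, below TIMP3 at 136, 92.8 and 107 TPM in each. MMP2 is the gelatinase that fibroblasts make constitutively, MMP14 is the membrane-bound protease that activates it, and TIMP2 takes part in that activation. MMP2 alone gave 38.1% to 66.7% of all MMP transcripts, and summed TIMP TPM exceeded summed MMP TPM in every library, by 1.01 to 2.45 times. Among the ADAMs, 4 were near 40 TPM or above on average: ADAM10 (64.7 TPM) and ADAM17 (41.3 TPM), the main sheddases of the cell surface, ADAM9 (49.8 TPM) and ADAM15 (41.7 TPM). ADAMTS1 (28.6 TPM), ADAMTS2 (22.1 TPM), which removes the N-terminal propeptide of collagen, ADAMTS5 (19.9 TPM), an enzyme that cuts aggrecan and versican, and ADAMTS10 (11.4 TPM) led the ADAMTS genes.

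**Figure D1:**
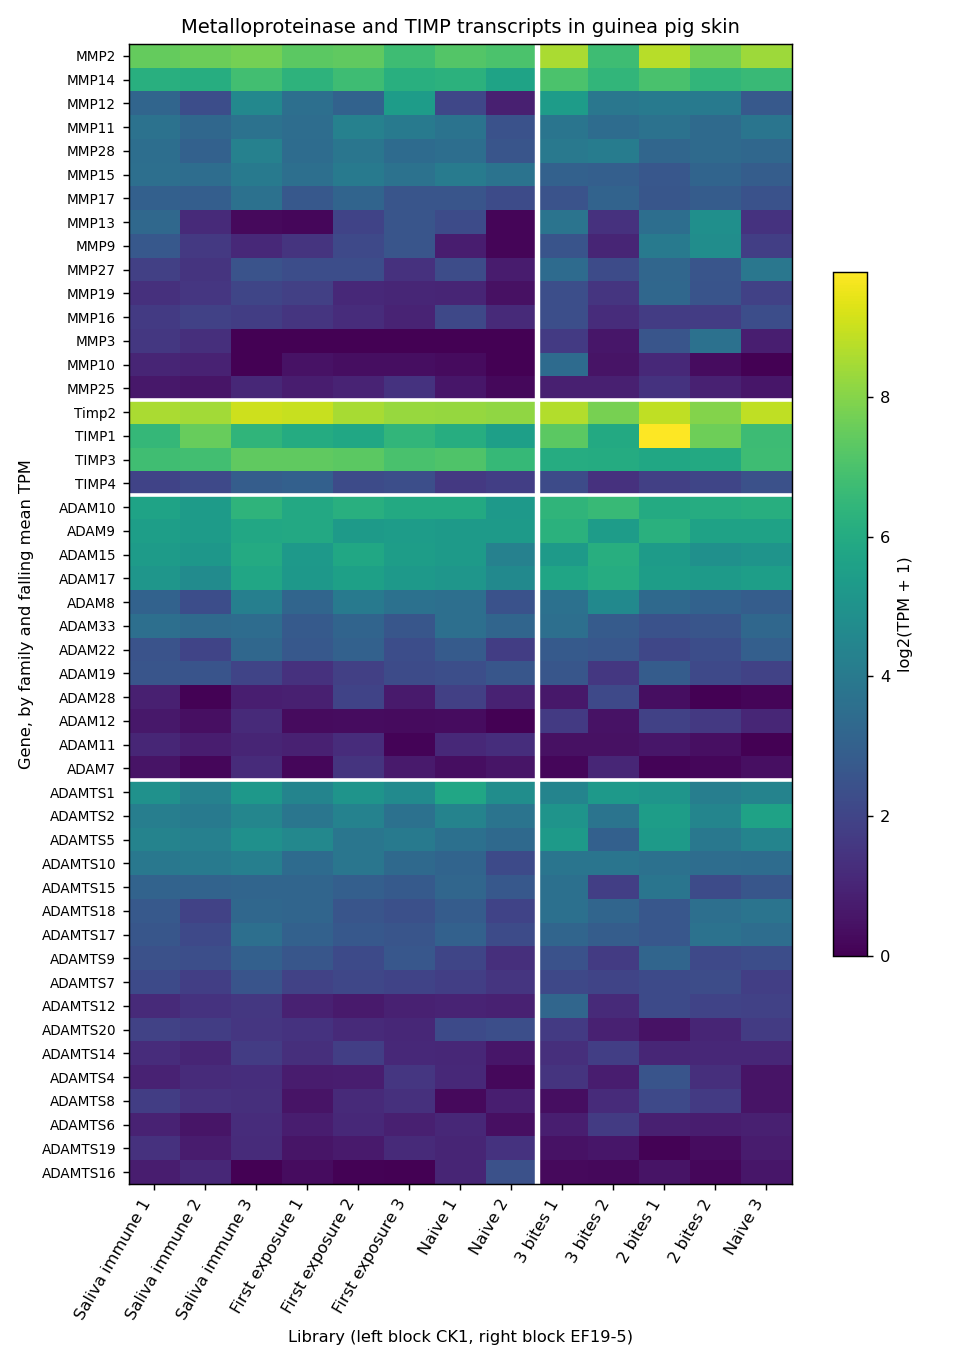
Colour gives log2(TPM + 1) of each of the 48 genes (rows, by family and falling mean) in each of the 13 libraries (columns, CK1 left of the white line and EF19-5 right). MMP2, MMP14, Timp2 and ADAM10 were high in every library, while MMP3, MMP10, MMP13 and MMP9 ranged from 0 or near 0 to 9.78 TPM or more.

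**Figure D2:**
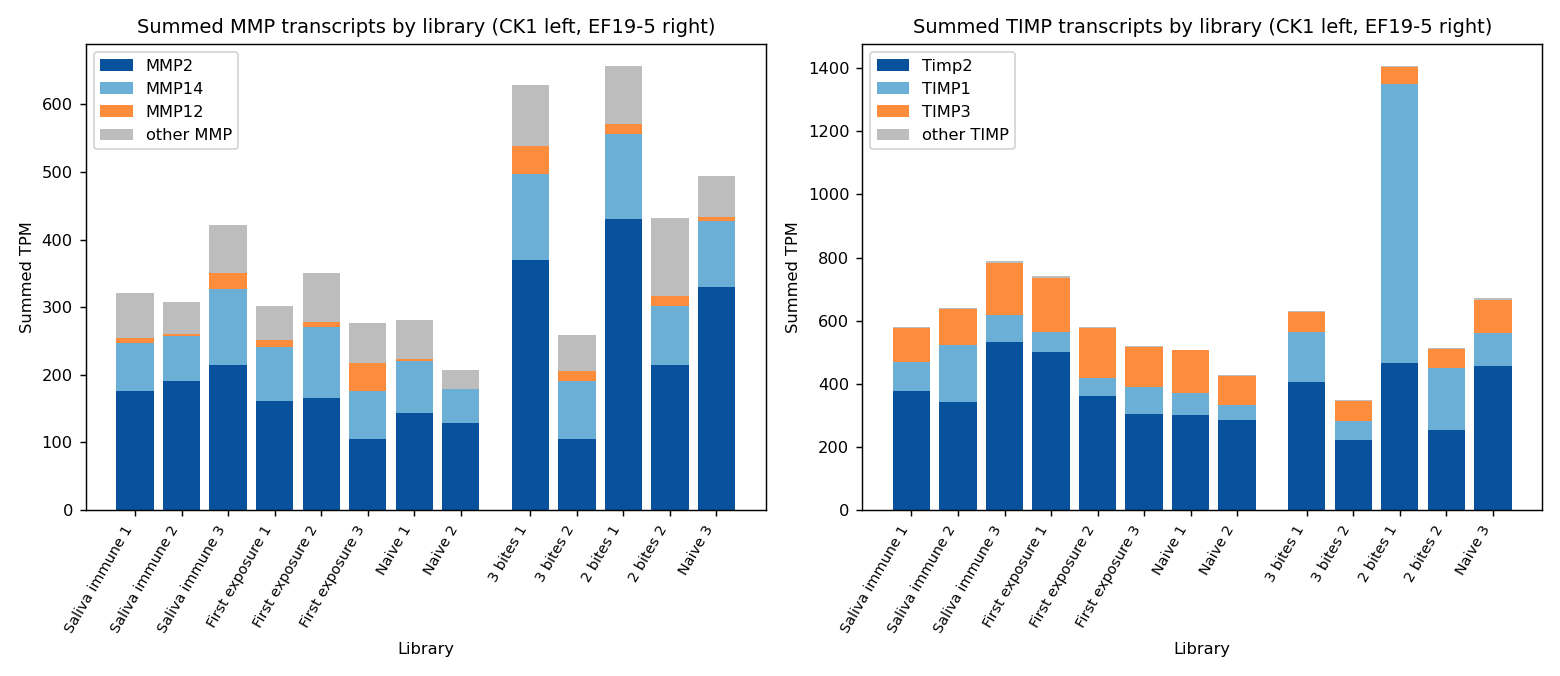
Bars stack the TPM of the leading genes and the rest of the MMP family (left panel) and of the TIMP family (right panel) in each library. Summed MMP transcripts were highest in 2 bites replicate 1 (656 TPM) and lowest in naive replicate 2 (208 TPM), and summed TIMP transcripts highest in 2 bites replicate 1 (1407 TPM) and lowest in 3 bites replicate 2 (349 TPM).

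Bitten skin of all groups was set against naive skin to ask which of these genes accompany a bite. MMP12, the macrophage metalloelastase, had the smallest p of the 48: it was above every naive library of the same experiment in each of the 10 bitten ones. MMP12 stood at 8.05, 3.94 and 22.6 TPM in saliva immune and 11.0, 7.42 and 41.4 TPM in first exposure skin, against 3.21 and 0.822 TPM in CK1 naive skin. In EF19-5, MMP12 stood at 41.6 and 13.7 TPM in 3 bites and 14.79 and 14.85 TPM in 2 bites skin, against 5.72 TPM in the naive library. The highest bitten libraries were first exposure replicate 3 and 3 bites replicate 1, and the lowest, saliva immune replicate 2, lay just above naive replicate 1. The difference on log2(TPM + 1) was 1.99 (SE 0.55), with an unadjusted p of 0.00284 and a limma adjusted p of 0.139 over all genes, so it did not pass the threshold of 0.05. It was 1.96 after the muscle genes were left out and the rest rescaled, and 1.59 without naive replicate 2.

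The table held all 10 monocyte and macrophage markers, and limma called none in bitten against naive skin (smallest adjusted p = 0.178). All 10 had a positive difference, against 64.6% of all genes, with a median of 0.80 on the log2 scale. At an unadjusted p under 0.05, 5 of the 10 were higher, against 11.2% of all genes. The summed level of the 10 was 146 to 264 TPM in bitten against 60.7 and 103 TPM in naive CK1 skin. In EF19-5 it was 112 to 564 TPM in bitten against 151 TPM in naive skin, which 3 bites replicate 2 lay below. MARCO, a scavenger receptor on that list, was listed at 0 in some libraries of either kind. In 3 bites skin MMP12 and the macrophage sum stood at 41.6 and 389 TPM in replicate 1 and 13.7 and 112 TPM in replicate 2. In 2 bites skin they stood at 14.79 and 564 TPM in replicate 1 and 14.85 and 237 TPM in replicate 2. The EF19-5 naive library had 5.72 and 151 TPM. The part of macrophage number in the MMP12 level was not tested.

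A further 4 genes lay apart from naive skin in both experiments, with smaller differences. ADAMTS10, a secreted protease known for its part in fibrillin microfibrils, stood at 13.95, 14.88 and 17.83 TPM in saliva immune and 9.58, 13.2 and 9.13 TPM in first exposure skin, against 7.88 and 3.62 TPM in CK1 naive skin. In EF19-5 it stood at 13.1 and 12.9 TPM in 3 bites and 11.71 and 10.27 TPM in 2 bites skin, against 10.15 TPM in the naive library. The log2 difference was 0.79 (SE 0.24, limma adjusted p = 0.168). ADAMTS7, which cuts the cartilage protein COMP, averaged 3.38 ± 0.65 TPM in bitten (SD, n = 10) and 2.29 ± 0.37 TPM in naive skin (n = 3). MMP17, a membrane-anchored MMP, averaged 6.70 ± 2.01 TPM in bitten and 4.39 ± 0.66 TPM in naive skin. The margins of both genes were narrow. For ADAMTS7 the lowest bitten and highest naive libraries stood at 2.515 and 2.487 TPM in CK1 and 3.046 and 2.529 TPM in EF19-5. For MMP17 they stood at 5.017 and 4.972 TPM in CK1 and 4.639 and 4.533 TPM in EF19-5. ADAMTS20, known in mice for pigment cell spread in the skin, was the lower gene, with 2.85, 2.41 and 1.89 TPM in saliva immune and 1.69, 1.25 and 1.13 TPM in first exposure against 3.60 and 4.14 TPM in CK1 naive skin. It stood at 2.14 and 0.852 TPM in 3 bites and 0.390 and 0.992 TPM in 2 bites against 2.27 TPM in EF19-5 naive skin, a log2 difference of -0.76 (SE 0.24, limma adjusted p = 0.172).

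Of these, 4 of the 48 genes lay above every naive library in both experiments, against 3.09% of all genes tested, and 1 lay below, against 1.76%. limma called 0 of the 48 (smallest adjusted p = 0.139, that of MMP12), where 0.0401% of all genes were called. At an unadjusted p under 0.05, 9 were higher, against 11.2% of all genes, and 2 were lower, against 4.58%. The 11 genes were MMP12, MMP9, MMP17, MMP19, MMP25, ADAM15, ADAMTS7, ADAMTS8 and ADAMTS10, higher, and ADAMTS16 and ADAMTS20, lower. Without naive replicate 2, the library with most muscle transcripts, 3 passed at that level in place of 11, and 7 did so without naive replicate 3. By family, 12 of 15 MMP genes were higher with a median log2 difference of 0.49, against 64.6% higher and a median of 0.10 over all genes. The median was 0.18 for 4 TIMP genes (0.53 without naive replicate 3), 0.19 for 12 ADAM genes and 0.19 for 17 ADAMTS genes.

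**Figure D3:**
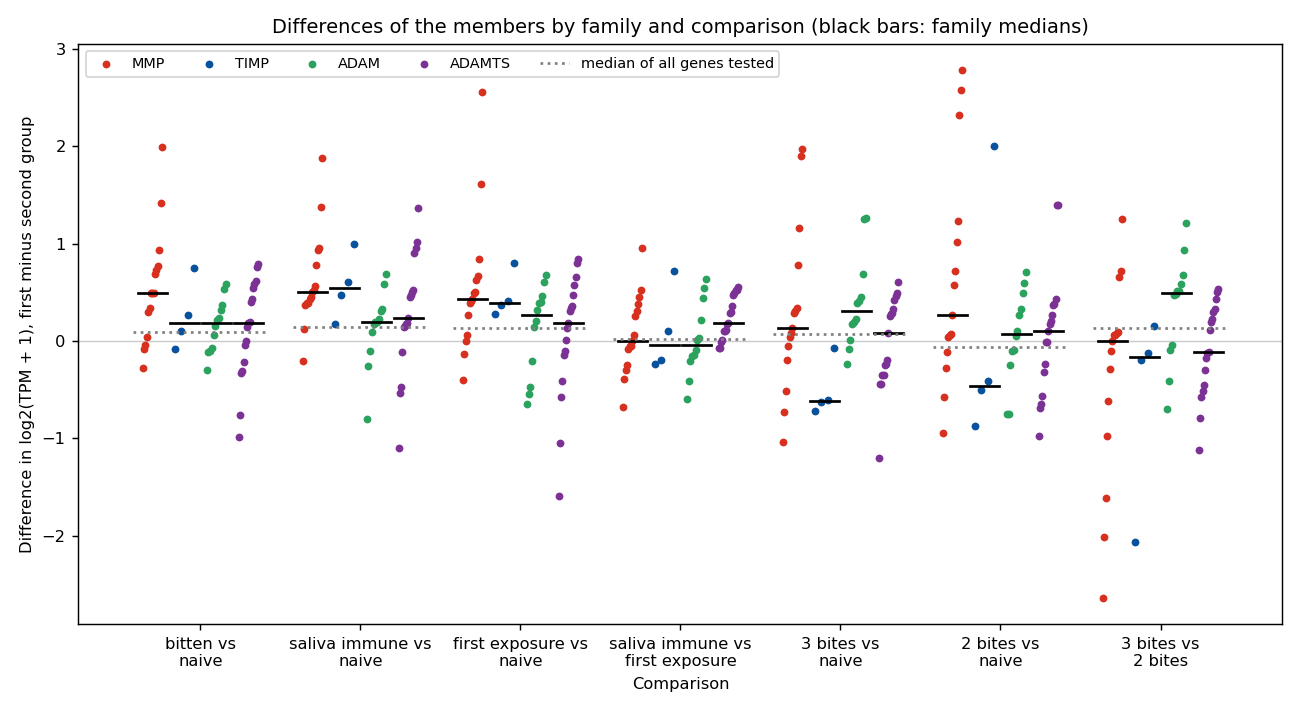
Each point is 1 gene and gives its difference in log2(TPM + 1), first minus second group, in each comparison. Black bars are family medians and the dotted line the median of all genes tested. MMP genes spread widest, from -2.64 for MMP9 (3 bites against 2 bites) to 2.78 for MMP13 (2 bites against naive skin).

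Within CK1, saliva immune and first exposure skin were each compared with the same 2 naive libraries, so these comparisons share their naive libraries. MMP9, the gelatinase known from neutrophils, macrophages and keratinocytes at wound edges, lay above both naive libraries in either group. MMP9 stood at 5.51, 2.11 and 1.18 TPM in saliva immune and 1.77, 3.44 and 4.96 TPM in first exposure skin, against 0.710 and 0.0926 TPM in naive skin. The bitten groups overlapped each other. The log2 difference from naive skin was 1.37 (SE 0.57, limma adjusted p = 0.398) in saliva immune and 1.61 (SE 0.57, adjusted p = 0.290) in first exposure skin. For MMP12, whose values stand above, it was 1.88 (SE 0.80, limma adjusted p = 0.410) in saliva immune and 2.55 (SE 0.80, adjusted p = 0.256) in first exposure skin.

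Of 10 neutrophil markers listed, 6 were tested, and limma called none in saliva immune or first exposure against naive skin (smallest adjusted p = 0.275 and 0.262). All 6 had a positive difference in either group, against 68.1% of all genes in saliva immune and 64.5% in first exposure skin. At an unadjusted p under 0.05, 4 were higher in saliva immune and 1 in first exposure skin, against 9.55% and 9.15% of all genes. Without overlap, 6 and 3 lay above naive skin, against 18.5% and 21.9% of all genes. The list as a whole summed to 297 to 1157 TPM in saliva immune and 219 to 2244 TPM in first exposure skin, against 84.5 and 121 TPM in naive skin. S100A9 gave most of that sum, a gene that keratinocytes also express, while the neutrophil genes CSF3R and ELANE reached at most 1.02 and 1.42 TPM in bitten CK1 skin and were listed at 0 in both naive libraries. Their part in the MMP9 level was not tested.

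ADAMTS10 had the smallest p of the 48 genes in saliva immune against naive skin, with a log2 difference of 1.36 (SE 0.27, unadjusted p = 0.00048, limma adjusted p = 0.206). Its 3 saliva immune libraries lay above all 3 first exposure libraries, which lay above both naive ones. Without naive replicate 2 the difference was 0.89. ADAMTS5 stood at 19.6, 18.2 and 28.8 TPM in saliva immune skin against 11.4 and 9.19 TPM in naive skin, without overlap (log2 difference 1.02, SE 0.61, limma adjusted p = 0.545). First exposure skin lay above naive skin too, with 23.0, 13.5 and 15.0 TPM of ADAMTS5. The vascular proteoglycanase ADAMTS9 averaged 5.16 ± 1.61 TPM in saliva immune (SD, n = 3) and 2.33 ± 1.18 TPM in naive skin (n = 2). It averaged 4.67 ± 0.945 TPM in first exposure skin (n = 3), and both bitten groups lay above naive skin without overlap. ADAMTS20 lay below naive skin without overlap in both bitten groups, and ADAMTS16, ADAM19 and ADAM33 did so in first exposure skin. In first exposure skin ADAMTS20 had the values given above and a log2 difference from naive skin of -1.05 (SE 0.28, limma adjusted p = 0.209). ADAMTS16 stood at 0.259, 0.0358 and 0 TPM in first exposure against 1.03 and 4.36 TPM in naive skin (log2 difference -1.60, SE 0.42, limma adjusted p = 0.208), and the difference was -0.90 without naive replicate 2, which held 4.36 TPM.

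Of the inhibitors, TIMP4 and Timp2 lay above both naive libraries in either group, and TIMP1 did so in saliva immune skin. TIMP1, the TIMP that cytokines and growth factors induce, stood at 90.7, 182 and 84.9 TPM in saliva immune and 64.0, 56.6 and 85.3 TPM in first exposure skin, against 68.4 and 45.5 TPM in naive skin. Timp2 averaged 417 ± 101 TPM in saliva immune (SD, n = 3), 389 ± 100 TPM in first exposure (n = 3) and 294 ± 10.8 TPM in naive skin (n = 2). TIMP3, which binds to the matrix and also inhibits ADAM17, stood at 109, 114 and 166 TPM in saliva immune and 170, 159 and 124 TPM in first exposure, against 136 and 92.8 TPM in naive skin, so that its groups overlapped. The TIMP4 values are given below with those of EF19-5.

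In saliva immune against naive skin, limma called 0 of 48 genes, where it called 0.00668% of all genes. At an unadjusted p under 0.05, 8 were higher against 9.55% of all genes, and 1 was lower against 2.08%. Without overlap with naive skin, 16 were higher against 18.5% of all genes, and 3 were lower against 6.22%. In first exposure against naive skin, limma also called 0 of 48, with 0.0334% of all genes called. There 6 were higher at an unadjusted p under 0.05 against 9.15% of all genes, and 2 lower against 4.49%, and 14 were higher without overlap against 21.9%, and 4 lower against 14.1%. The count at an unadjusted p under 0.05 was 9 in saliva immune skin with all libraries, 4 without saliva immune replicate 1 or replicate 3 and 2 without naive replicate 2. In first exposure skin it was 8, and 2 without naive replicate 2 and 4 without first exposure replicate 3. Of the 15 MMP genes, 14 were higher in saliva immune skin (median log2 difference 0.50), against 68.1% of all genes. In first exposure skin 12 were higher (median 0.44), against 64.5% of all genes. The medians over all genes were 0.14 and 0.14.

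Saliva immune skin was then set directly against first exposure skin. ADAM33, an ADAM made by mesenchymal cells, was the gene of the 48 with the smallest p. It stood at 11.1, 9.35 and 10.1 TPM in saliva immune and 5.83, 7.80 and 5.21 TPM in first exposure skin, without overlap, for a log2 difference of 0.63 (SE 0.23, unadjusted p = 0.0189, limma adjusted p = 1). The naive libraries stood at 11.07 and 8.139 TPM, the first as high as saliva immune replicate 1 and the second between the saliva immune and the first exposure libraries. MMP2 stood at 176, 190 and 214 TPM in saliva immune and 161, 166 and 105 TPM in first exposure skin, also without overlap. MMP16, a membrane-type MMP, averaged 2.43 ± 0.24 TPM in saliva immune and 1.40 ± 0.42 TPM in first exposure skin (SD, n = 3 each). ADAMTS12, a protease that cuts COMP, averaged 1.635 ± 0.37 TPM in saliva immune and 0.79 ± 0.12 TPM in first exposure skin. The CK1 naive libraries stood at 143.5 and 128.2 TPM of MMP2 and 0.9688 and 0.856 TPM of ADAMTS12. They stood at 3.399 and 1.243 TPM of MMP16, on both sides of its saliva immune libraries. MMP3, the stromelysin that fibroblasts and keratinocytes make when stimulated, was listed at 1.97, 1.46 and 0 TPM in saliva immune skin and at 0 in all first exposure and CK1 naive libraries.

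No member was called by limma in that comparison, nor was any other gene (0% of all genes), and 1 of 48 was higher at an unadjusted p under 0.05 (1.8% of all genes) and 0 lower (0.547%). Without overlap, 7 of 48 were higher in saliva immune skin, against 5.41% of all genes, and 0 were lower, against 1.35%. The 7 were MMP2, MMP16, ADAM12, ADAM33, ADAMTS10, ADAMTS12 and ADAMTS20. Of 10 fibroblast markers, 9 had a higher mean log2 level in saliva immune than in first exposure skin, against 54.4% of all genes, with a median log2 difference of 0.47. None was called by limma, 2 passed at an unadjusted p under 0.05 and 5 of 10 were higher without overlap, and none was at 0 in any library. Their sums, at 2557 to 3951 TPM in saliva immune and 1902 to 3250 TPM in first exposure skin, overlapped. Their part in the levels of these 7 genes was not tested. FN1, the matrix protein fibronectin that several of these proteases cut, stood at 86.05, 97.77 and 78.8 TPM in saliva immune and 27.75, 24.87 and 23.22 TPM in first exposure skin, where naive skin had 85.68 and 104.6 TPM (log2 difference 1.75, unadjusted p = 0.00683, limma adjusted p = 1).

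**Figure D4:**
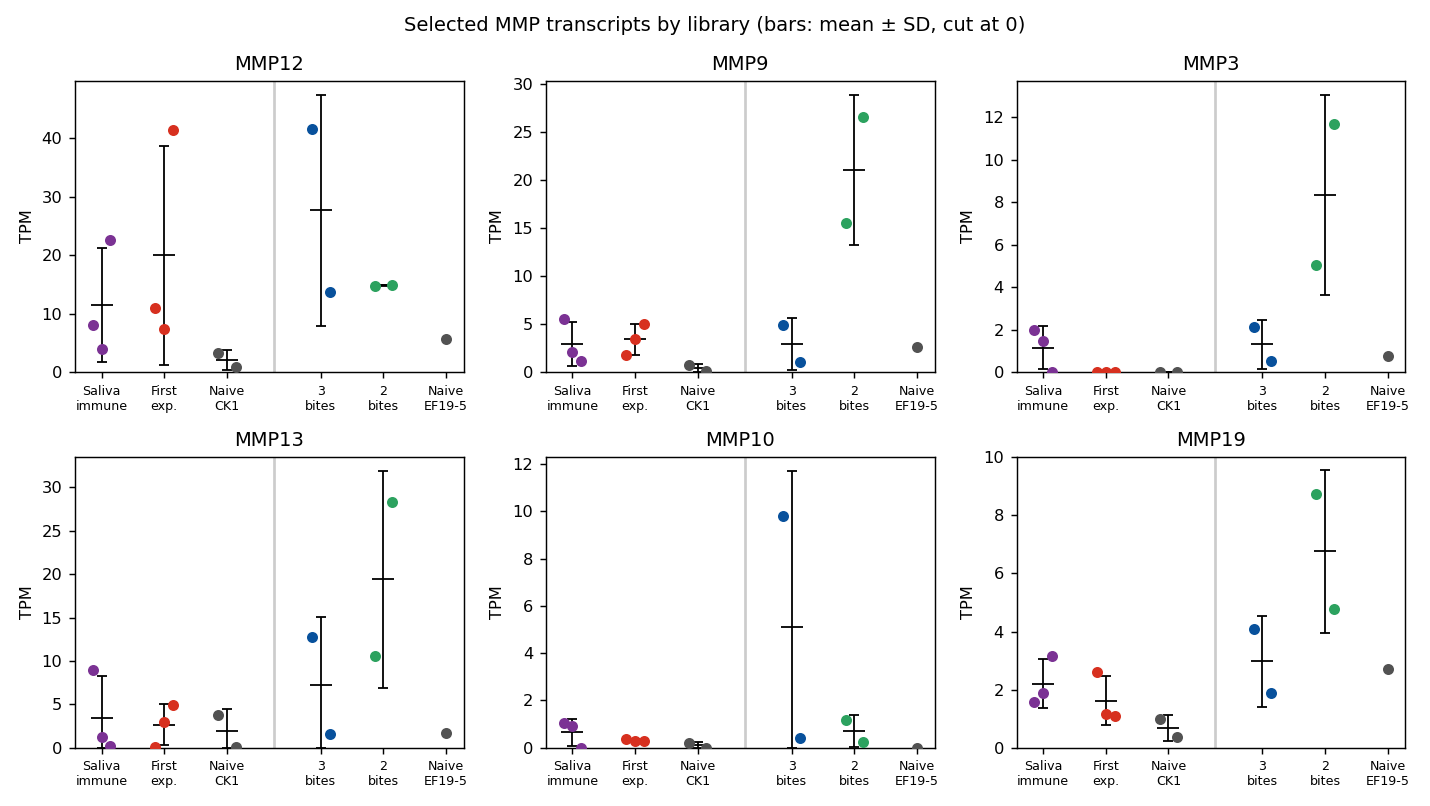
Points give TPM of 6 MMP genes in each library, by group, with CK1 groups left and EF19-5 groups right of the grey line; bars are the mean ± SD, cut at 0, where a group has more than 1 library. MMP12 lies above naive skin of the same experiment in each bitten library. MMP9 and MMP3 are highest in the 2 bites libraries, at 15.5 and 26.6 TPM and at 5.02 and 11.7 TPM.

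In EF19-5 the bitten groups had 2 libraries each and the naive skin 1, which both comparisons share and whose spread is assumed to be that of the other groups. MMP3, MMP9, MMP13 and MMP19 had their highest group mean in 2 bites skin. MMP9 stood at 15.5 and 26.6 TPM in 2 bites skin against 2.56 TPM in naive skin (log2 difference 2.58, SE 0.76, unadjusted p = 0.00693, limma adjusted p = 0.743). MMP3 stood at 5.02 and 11.7 TPM in 2 bites skin against 0.751 TPM in naive skin (log2 difference 2.32, SE 0.66, limma adjusted p = 0.742). MMP3 and MMP10 are close paralogs, and how reads that could belong to either were divided is not given in the sources used here. MMP13, the main interstitial collagenase of mice, stood at 10.6 and 28.3 TPM in 2 bites skin against 1.68 TPM in naive skin, a log2 difference of 2.78 (SE 1.47, limma adjusted p = 0.885). MMP19, a protease of the epidermis and of macrophages, stood at 8.735 and 4.78 TPM in 2 bites skin against 2.72 TPM in naive skin (log2 difference 1.01, and 0.64 without 2 bites replicate 1).

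In 3 bites skin replicate 1 was the higher library for each of them. MMP9 stood at 4.87 and 1.003 TPM, MMP3 at 2.13 and 0.503 TPM MMP13 at 12.7 and 1.63 TPM and MMP19 at 4.08 and 1.875 TPM in its 2 libraries, so that MMP13 overlapped 2 bites skin. Against 2 bites skin, MMP9 differed by -2.64 (SE 0.62, unadjusted p = 0.00172, limma adjusted p = 0.331) and MMP3 by -2.01 (SE 0.54, unadjusted p = 0.00395, limma adjusted p = 0.341), both without overlap. Of all 14979 genes tested, 1727 were lower without overlap in that comparison. MMP10, a stromelysin of migrating keratinocytes, stood at 9.78 and 0.427 TPM in 3 bites, 1.17 and 0.244 TPM in 2 bites and 0 TPM in naive skin, so that no fold can be given, and its level rests on 3 bites replicate 1. MMP12 stood 1.90 above naive skin on the log2 scale in 3 bites skin (SE 1.07, limma adjusted p = 1), and 1.13 without that library. ADAM8, an ADAM of leukocytes, stood at 11.4 and 24.1 TPM in 3 bites against 6.36 TPM in naive skin (log2 difference 1.26, and 0.76 without 3 bites replicate 2). ADAM28, an ADAM known from lymphocytes, stood at 0.530 and 3.48 TPM in 3 bites, 0.286 and 0 TPM in 2 bites and 0.0968 TPM in naive skin, and its log2 difference from naive skin was 1.26 with all libraries (limma adjusted p = 1) and 0.48 without 3 bites replicate 2.

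TIMP1 was the most abundant gene of the 48 in 2 bites replicate 1. It stood at 884 and 196 TPM in 2 bites skin against 104 TPM in naive skin (log2 difference 2.00, SE 0.82, limma adjusted p = 0.808), and the difference was 0.91 without replicate 1 and 3.08 without replicate 2. In 3 bites skin it stood at 158 and 61.4 TPM, a log2 difference of -2.07 from 2 bites skin (SE 0.67, limma adjusted p = 0.374), and -0.99 without 2 bites replicate 1. TIMP1 gave 25.01% and 17.59% of summed TIMP TPM in 3 bites, 62.84% and 38.19% in 2 bites and 15.44% in naive skin. The proteoglycanases ADAMTS4 and ADAMTS8, also high in 2 bites skin, stood at 4.78 and 1.47 TPM and at 3.42 and 2.19 TPM there, against 0.438 and 0.424 TPM in naive skin (log2 differences 1.39 and 1.40, limma adjusted p = 0.812 and 0.743). The difference of ADAMTS4 was 0.78 without 2 bites replicate 1.

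**Figure D5:**
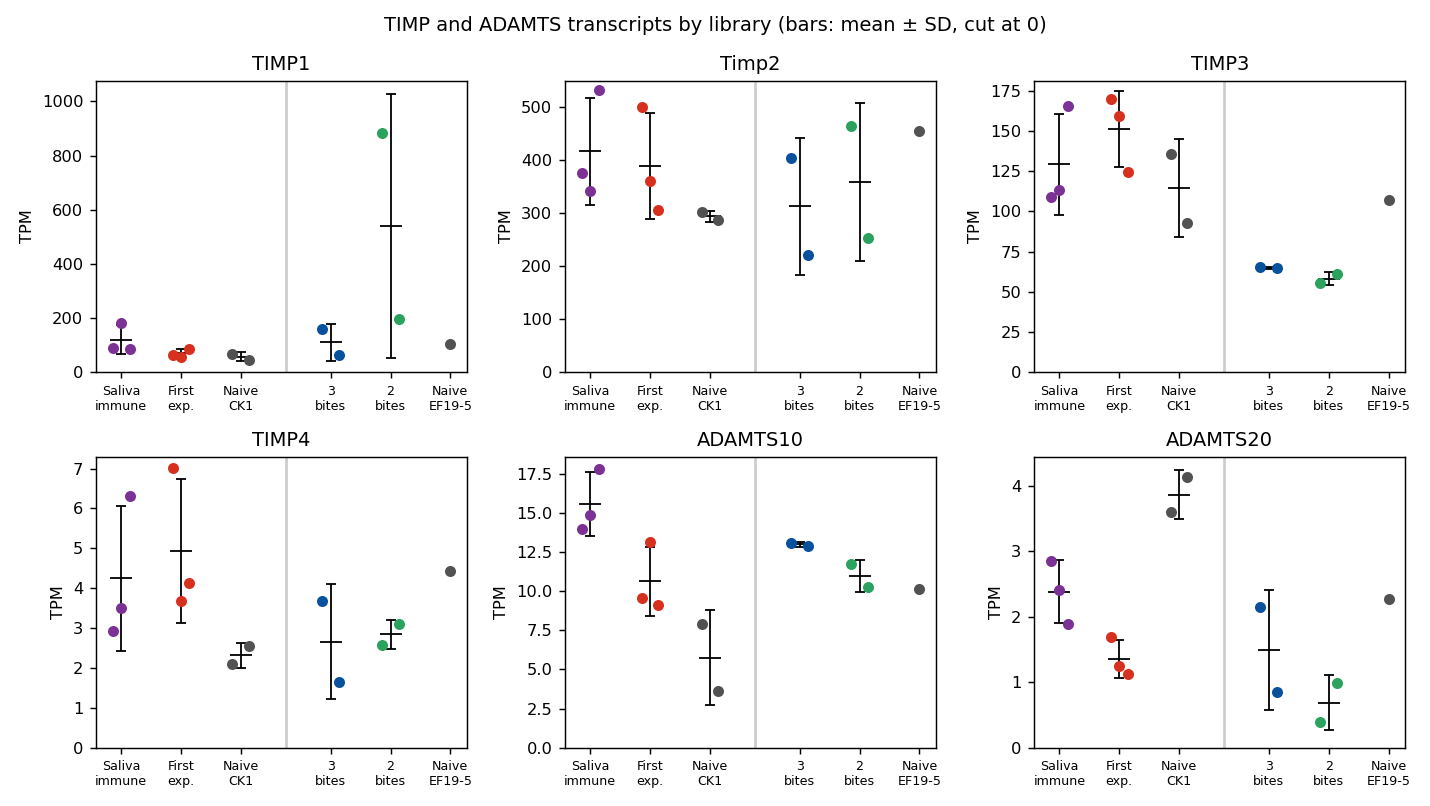
Points give TPM of the 4 TIMP genes and of ADAMTS10 and ADAMTS20 in each library, laid out as in the plot of MMP genes, with bars for the mean ± SD. TIMP1 reached 884 TPM in 2 bites replicate 1, TIMP3 lay between 55.2 and 65.2 TPM in the 4 bitten EF19-5 libraries against 107 TPM in the naive one, and ADAMTS20 lay below naive skin in every bitten library of its experiment.

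TIMP3 was lower in all bitten EF19-5 libraries than in the naive one. It stood at 65.2 and 64.5 TPM in 3 bites and 55.2 and 60.9 TPM in 2 bites against 107 TPM in naive skin, with little spread within a group. The log2 difference was -0.71 (SE 0.31, limma adjusted p = 1) in 3 bites and -0.87 (SE 0.31, limma adjusted p = 0.743) in 2 bites skin. ADAMTS2 and MMP27 also lay below naive skin there. Lying below this 1 naive library was common. Without overlap, 12 of the 48 genes did so in 3 bites and 16 in 2 bites skin. Over all 14979 genes tested, 3622 and 6492 did so. ADAMTS2 stood at 32.9 and 12.7 TPM in 3 bites and 42.1 and 21.0 TPM in 2 bites against 48.6 TPM in naive skin, and MMP27 at 9.66 and 3.71 TPM in 3 bites and 8.52 and 5.06 TPM in 2 bites against 13.6 TPM. Against naive skin in 3 bites, ADAMTS2 differed by -1.205 and MMP27 by -1.04 (limma adjusted p = 1 for both). Without 3 bites replicate 1 the differences were -1.86 and -1.63, and without replicate 2 they were -0.55 and -0.45. The 3 bites libraries were unlike each other in stromal genes. MMP2 stood at 370 TPM in replicate 1 and 105 TPM in replicate 2, ADAMTS5 at 39.2 and 7.09 TPM, and the fibroblast marker sum at 8960 and 3369 TPM, in that order. In 2 bites skin MMP2 stood at 431 and 215 TPM, ADAMTS5 at 39.6 and 13.9 TPM and the fibroblast sum at 7991 and 4735 TPM, while naive skin had 329 TPM of MMP2, 20.4 TPM of ADAMTS5 and a fibroblast sum of 12820 TPM.

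Leukocyte markers differed between the same EF19-5 libraries. The macrophage sum was 389 and 112 TPM in 3 bites, 564 and 237 TPM in 2 bites and 151 TPM in naive skin, and the neutrophil sum 203 and 634 TPM in 3 bites, 559 and 542 TPM in 2 bites and 172 TPM in naive skin. CSF3R was listed at 0 in the naive library and ELANE in all EF19-5 libraries but 2 bites replicate 1, where it stood at 0.272 TPM. Their part in the MMP9, MMP3 and TIMP1 levels was not tested.

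limma called 0 of the 48 genes in 3 bites against naive skin (0.00668% of all genes called), 0 in 2 bites against naive skin (0.0134%) and 0 in 3 bites against 2 bites skin (0%). At an unadjusted p under 0.05, none of the 48 was higher in 3 bites than in naive skin (1.65% of all genes) and 1 was lower (0.694%), namely TIMP3. In 2 bites against naive skin, 5 were higher against 2.7% of all genes, namely MMP3, MMP9, TIMP1, ADAMTS4 and ADAMTS8, and 2 lower against 3.16%, namely TIMP3 and ADAMTS20. In 3 bites against 2 bites skin, 1 was higher against 8.12% of all genes, namely ADAM33, and 5 lower against 2.66%, namely MMP3, MMP9, MMP19, TIMP1 and ADAMTS8. Without 2 bites replicate 1, 2 genes passed at that level in 2 bites against naive skin in place of 7, and 2 in 3 bites against 2 bites skin in place of 6. Without 3 bites replicate 1, 10 passed in 3 bites against 2 bites skin and 4 in 3 bites against naive skin.

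The effect of a bite was compared between the experiments as a difference of differences, EF19-5 minus CK1, which rests on 1 naive library of EF19-5. limma called 0 of the 48 genes and 0% of all genes, and 2 of the 48 passed at an unadjusted p under 0.05, against 2.69% of all genes. TIMP3 differed by -1.09 (SE 0.34, unadjusted p = 0.00766, limma adjusted p = 1), and TIMP4 by -1.27 (SE 0.50, unadjusted p = 0.0251, limma adjusted p = 1). TIMP4, the TIMP of muscle, heart and fat, stood at 3.68 and 1.64 TPM in 3 bites and 2.58 and 3.10 TPM in 2 bites against 4.44 TPM in EF19-5 naive skin, all below it. In CK1 it stood at 2.92, 3.51 and 6.32 TPM in saliva immune and 7.01, 3.68 and 4.13 TPM in first exposure against 2.10 and 2.54 TPM in naive skin, all above it. Summed TPM of the 7 adipocyte markers measured ran from 1204 to 3070 in bitten and stood at 2321 in naive EF19-5 skin, and from 2416 to 7315 in bitten and 556.5 and 1119 in naive CK1 skin. Their part in the TIMP4 level was not tested.

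Other members named by abundance or from the panel follow. The sheddases ADAM10 and ADAM17 stood at 40.4 to 81.5 TPM and 25.4 to 54.4 TPM in bitten against 37.8 and 61.3 TPM and 24.2 and 34.0 TPM in naive CK1 skin, where ADAM17 in first exposure skin, at 36.3 to 46.1 TPM, did not overlap. In EF19-5, ADAM10 stood at 84.62 and 96.05 TPM in 3 bites and 61.82 and 66.38 TPM in 2 bites against 68.78 TPM in naive skin. ADAM17 stood at 53.23 and 65.01 TPM in 3 bites and 42.48 and 39.67 TPM in 2 bites against 43.9 TPM in naive skin. Both genes were thus above naive and 2 bites skin in each 3 bites library, with log2 differences from 2 bites skin of 0.49 (SE 0.31) for ADAM10 and 0.51 (SE 0.31) for ADAM17 (limma adjusted p = 0.579 and 0.563). Such a position was common: of 14979 genes tested, 6163 lay above naive skin and 5334 above 2 bites skin without overlap in 3 bites skin. MMP14 stood at 66.7 to 113 TPM in bitten against 50.2 and 76.3 TPM in naive CK1 skin, and at 85.9 to 127 TPM in bitten against 98.8 TPM in naive EF19-5 skin, with overlap. MMP28, the epidermal MMP known as epilysin, and MMP11, the stromelysin of remodelling stroma, averaged 11.0 and 11.6 TPM over 13 libraries. MMP28 overlapped between bitten and naive skin in CK1, and stood at 14.42 and 16.4 TPM in 3 bites and 8.479 and 9.465 TPM in 2 bites against 8.54 TPM in EF19-5 naive skin. MMP11 averaged 14.79 ± 4.238 TPM in first exposure (SD, n = 3) and 8.41 ± 5.475 TPM in naive CK1 skin (n = 2), with overlap (log2 difference 0.84, SE 0.36, unadjusted p = 0.0415, limma adjusted p = 0.355). It stood at 9.41 to 12.8 TPM in bitten against 13.03 TPM in naive EF19-5 skin. ADAMTS1, an early response gene in several tissues, stood at 17.1 to 36.9 TPM in the bitten libraries and had its highest level, 55.1 TPM, in naive replicate 1. ADAMTS15, a versican-cutting protease, averaged 7.18 TPM over 13 libraries, and ADAM19 averaged 3.83 TPM. MMP25, a membrane-anchored MMP of leukocytes, ADAM12 and ADAMTS14, a procollagen proteinase like ADAMTS2, averaged 0.839, 0.885 and 1.45 TPM over 13 libraries. MMP25 differed by 0.49 between bitten and naive skin (SE 0.20, unadjusted p = 0.0316, limma adjusted p = 0.278) and by 0.67 between first exposure and naive skin (SE 0.29, unadjusted p = 0.0412, limma adjusted p = 0.354).

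Genes that activate, inhibit or partner these proteases were followed as lists beside them. limma called none of them in bitten against naive skin. Means given for them pool both experiments. Of the genes tested on these lists, only FURIN lay above and only SPOCK1 below naive skin without overlap in both experiments. Over all genes the shares were 3.09% above and 1.76% below. The others overlapped naive skin in at least 1 experiment. Of the other inhibitors and clearance genes, 6 of 9 were higher, against 64.6% of all genes. The median log2 difference of the 9 was 0.17, against 0.10 over all genes. That share and that median over all genes also apply to each list that follows, here and in the next paragraph. TFPI2, a Kunitz inhibitor of plasmin that also inhibits MMPs, averaged 6.90 ± 1.945 TPM in bitten (SD, n = 10) and 2.59 ± 1.39 TPM in naive skin (n = 3), a log2 difference of 1.15 (SE 0.25, unadjusted p = 0.000433, limma adjusted p = 0.110). SPOCK1, a testican proteoglycan, averaged 4.04 ± 1.82 TPM in bitten and 10.25 ± 3.01 TPM in naive skin, a log2 difference of -1.225 (SE 0.37, limma adjusted p = 0.167). Of 7 proprotein convertase and plasminogen activation genes 6 were higher (median 0.44): FURIN, the convertase that activates membrane-type MMPs and ADAMs, averaged 71.2 ± 15.0 TPM in bitten and 51.5 ± 16.4 TPM in naive skin, and PLAU, the urokinase that starts plasmin formation, 39.5 ± 12.2 TPM and 24.99 ± 6.04 TPM (limma adjusted p = 0.195 and 0.207).

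Of 8 partners of ADAM10 and ADAM17, 7 were higher (median 0.24), with RHBDF2, the iRhom that carries ADAM17 to the surface of leukocytes, at 51.8 ± 10.8 TPM in bitten and 34.7 ± 12.4 TPM in naive skin, and TSPAN33, a tetraspanin partner of ADAM10, at 7.55 ± 2.09 TPM and 4.67 ± 0.73 TPM. Of 11 genes for shed substrates, 9 were higher (median 0.29), with the receptor TNFRSF1A at 55.4 ± 15.5 TPM in bitten and 38.5 ± 12.2 TPM in naive skin, and Tnf, the cytokine released by ADAM17, at 2.59 ± 0.95 TPM and 1.335 ± 0.72 TPM. Of 10 matrix substrates 5 were higher and 5 lower (median -0.01), with Vwf, the substrate of ADAMTS13, at 14.3 ± 5.09 TPM in bitten and 6.88 ± 3.24 TPM in naive skin, and COL4A1, a basement membrane collagen, at 103 ± 35.2 TPM and 58.7 ± 20.2 TPM. Vwf is also an endothelial marker, and of the 7 such markers measured 6 stood higher in bitten skin, against 64.6% of all genes (median log2 difference 0.63). At an unadjusted p under 0.05, 4 were higher, against 11.2% of all genes, and limma called none. The 7 markers summed to 72.24 to 121.2 TPM in bitten against 46.82 and 75.81 TPM in naive CK1 skin, and to 38.64 to 126.4 TPM in bitten against 41 TPM in naive EF19-5 skin. Their part in the Vwf and COL4A1 levels was not tested. Of 10 other metzincins and ADAMTS-like genes 8 were higher (median 0.32), among them the procollagen proteinase TLL1 at 1.39 ± 0.50 TPM in bitten and 0.64 ± 0.30 TPM in naive skin, and ADAMTSL5, a microfibril protein, at 4.585 ± 0.84 TPM and 3.393 ± 1.025 TPM.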

How the data were processed

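RNA of guinea pig skin was sequenced in 13 libraries. Values are TPM as the authors deposited them, each library summing to 1000000. The submitters' processing notes list Trimmomatic, StringTie and DESeq with neither role nor version. Aligner, genome build, annotation and strandedness: not given in the sources used here. Reads shared by overlapping or near-identical genes could not be told apart, no coordinates are printed, and the depth is unknown. RPL10L alone among ribosomal protein genes was listed at 0 in any library.

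Genes reaching 1 TPM in 2 or more libraries entered limma (version 3.58.1, R 4.3.3; tables read with data.table, version 1.17.8) as log2(TPM + 1), a scale that understates changes of low genes. Tests used an intensity trend, were two-sided and were adjusted by Benjamini-Hochberg over all 14979 genes, with calls at an adjusted p under 0.05. Bitten against naive skin was fitted over all libraries with an experiment term. The remaining contrasts used a joint fit of the 5 groups with that term, so all groups share a spread. "Without overlap" means that every library of the first group lay above, or below, every library of the second in the same experiment. The fits were checked on simulated data with known changes.

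The genes, lists and tests were chosen with earlier results of these data known. Named genes were the 5 most abundant of each family. Per comparison they were also up to 6 genes each way without overlap, with a log2 difference of at least 1 and a higher group averaging 2 TPM or more. A panel of skin and leukocyte proteases, called markers and the 2 genes of each pathway list with the smallest p in bitten against naive skin completed them. MMP13 in 2 bites skin, FN1 and genes named beside small counts were picked after their values were seen. Alternatives were a pseudocount of 0.1, no filter, a filter of 5 TPM, median-of-ratios scaling, leaving out muscle genes with rescaling, 1 experiment alone, no experiment term, array weights and leaving out each library.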

Additional observations from a re-analysis of the deposited data

Results flagged for a closer look

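TIMP4 had every bitten library below naive skin in EF19-5 (1.64 to 3.68 TPM against 4.44 TPM) and every bitten library above it in CK1 (2.92 to 7.01 TPM against 2.10 and 2.54 TPM). The difference between the bite effects was -1.27 on log2(TPM + 1), EF19-5 minus CK1, with a limma adjusted p of 1. No study group held 4 or more libraries, so none was examined for a library that stands apart.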

How the results depend on the processing

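The number of the 48 genes called was 0 in every comparison with all libraries, and 151 of 152 recomputed counts were 0 too, with leave-one-out counts from 0 to 0. The exception was saliva immune against first exposure skin with array weights, where 9 genes were called (MMP3, ADAM33, ADAMTS20, ADAMTS16, ADAM19, ADAMTS8 and ADAMTS10 higher, TIMP3 and MMP25 lower) and 2174 of all genes; the weights had stopped before convergence and gave saliva immune replicate 1 a weight of 51.9 against 0.179 to 1.83 for the others. Directions of the named differences held in 499 of 499 recomputed values. These differences had been chosen for groups without overlap. Leaving out a library or changing the pseudocount or filter could therefore not reverse them, and the count is no separate support. The median over all genes was 0.14 in either CK1 bitten group against naive skin and came to -0.01 and 0.00 under median-of-ratios scaling, where the median of the 48 genes was 0.30 in saliva immune and 0.24 in first exposure skin. The difference of MMP12 between bitten and naive skin ranged from 1.59 to 2.38, with adjusted p from 0.0916 to 0.878. In 3 bites against 2 bites skin median-of-ratios scaling gave a median of -0.095 for the 48 genes and -0.032 for all genes, against 0.032 and 0.135 unscaled. Of 552 recomputed family medians, 10 moved by more than the spread between libraries. The comparisons of EF19-5 bitten with naive skin could not be fitted without naive replicate 3. No paired analysis was possible because the labels number no replicates across groups. With the depth unknown, low values such as those of MMP3 and MMP10 carry no counting interval.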
